A study of Macrobrachium rosenbergii with 20 samples.

Results

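The transcripts described here are those with RNA in the testis, and little or none in ovary or hepatopancreas, that differed at most 20-fold between the 5 testis libraries from adults of Macrobrachium rosenbergii, the giant freshwater prawn (strain CMr1). They were 26 of 30260 transcripts in the deposited table. Each had a median normalised count of at least 100 in testis and under 10 in ovary, in female hepatopancreas and in male hepatopancreas, and a ratio of (highest + 1) to (lowest + 1) among the testes of at most 20. A normalised count is the rounded estimated count divided by the library's DESeq2 size factor, which sets libraries to the same level over the 5239 transcripts with counts in all 20 libraries. These values chose the members, so their levels, their absence elsewhere and their ratios are descriptions and carry no test of their own.

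The study sequenced RNA of the hepatopancreas and the gonads in 4 groups of 5 libraries: adult female hepatopancreas, adult male hepatopancreas, ovary and testis, all of strain CMr1, with a weight gain label per sample and no treatment label. The labels do not say whether replicates came from separate animals, so spreads and p-values measure the differences between these libraries, which may in part be technical. The files pair the transcripts with no gene names, and 0 of the IDs matched a table of 31758 RefSeq genes (assembly ASM4041242v1), so members are called by their IDs and neither their products nor the tissue labels could be checked against known markers. Library totals ran from 8670640 to 18355650 counts, and from 12822717 to 17102848 in testis.

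The testis is where male germ cells divide, pass through meiosis and are remodelled into sperm, and in animals it is known for holding many transcripts that few other tissues hold. Decapod sperm have no flagellum, and those of Macrobrachium are tack-shaped and do not swim. The hepatopancreas is the digestive and storage gland of crustaceans, and the ovary holds growing oocytes.

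Testis 5 stood apart from the other testes before any member was considered. Across transcripts, the median Pearson correlation of its log2(CPM + 1) values with those of the other testes was 0.717, against 0.884 to 0.894 for testes 1 to 4 (CPM are counts scaled to the library total). Female hepatopancreas libraries 3 and 4 had the lowest such values of their group, at 0.809 and 0.836. The size factors of the testes ran from 0.621 in testis 1 to 2.17 in testis 5, a wider range than that of their totals. The 2438 transcripts with a median of at least 100 in all 4 groups took 23.2%, 32.0%, 35.3%, 39.8% and 47.6% of the counts in testes 1 to 5, so a normalised count in testis is a level relative to transcripts that held different shares of each library. Fewer cells of a type and less RNA per cell cannot be told apart in these bulk samples.

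**Figure D1:**
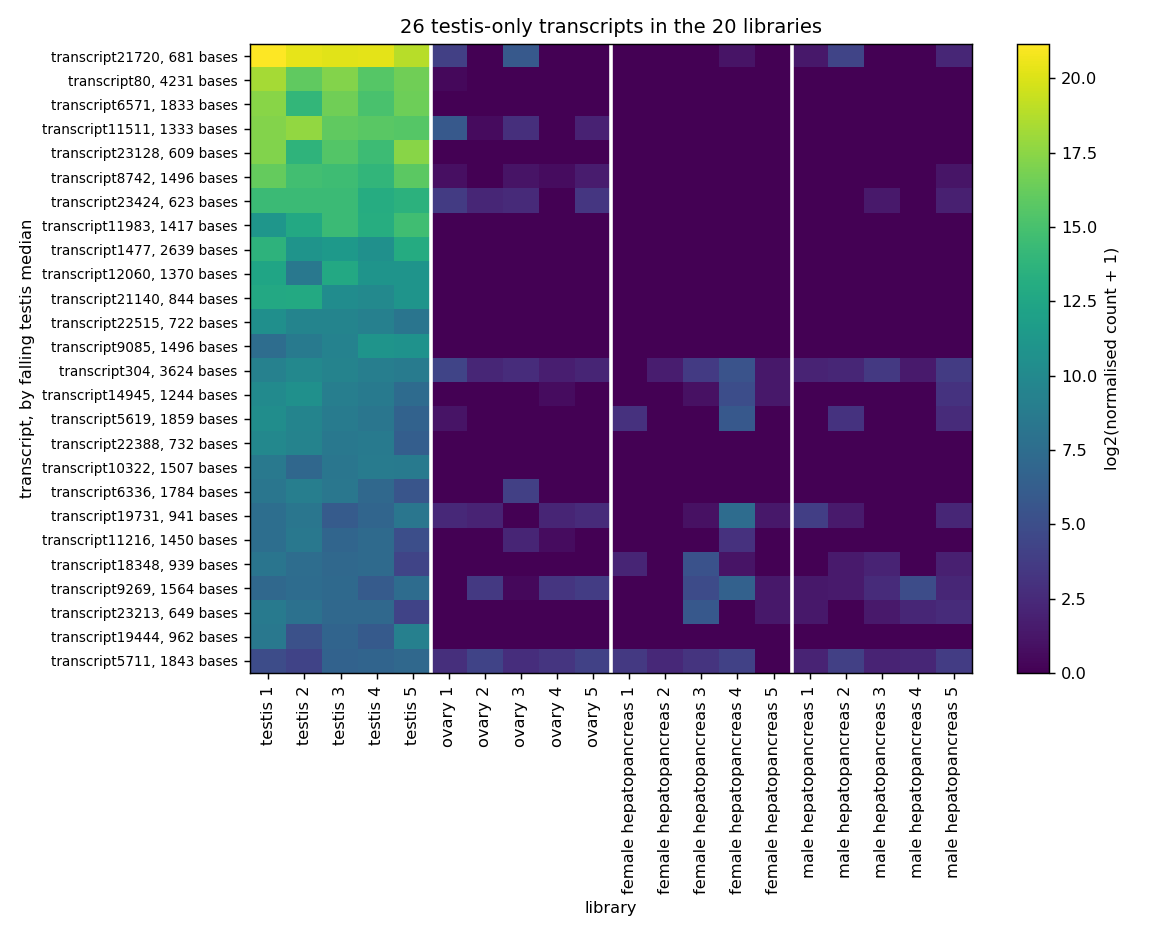
Normalised counts of the 26 members (rows, by falling testis median, labelled by the number and length in the ID and table) in the 20 libraries (columns), coloured by log2(normalised count + 1). Every member has counts in all 5 testes, and 11 have none in the 15 other libraries.

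The members spanned testis medians from 102.4 to 1252000 normalised counts, with a median of 631.9. Of the 26, 7 had a testis median over 10000, 4 lay between 1000 and 10000, and 15 lay under 1000. Together they took 12.60% ± 1.93 of testis counts (SD, n = 5), at 13.7%, 9.24%, 13.8%, 13.7% and 12.7% in testes 1 to 5. A single member made up 69.9% of the members' testis counts, and the 7 most abundant made up 97.8%. Without that single member, the others took 3.9%, 2.1%, 3.7%, 1.9% and 6.7% in testes 1 to 5, most in testis 5. The sum over members therefore describes a few transcripts, and most members are of low level.

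The most abundant member, transcript_HQ_Female_transcript21720/f3p0/681, is 681 bases long and ranked 1 of 9682 transcripts with testis counts by median level per kilobase of length (1838000 normalised counts per kilobase). It held 2330000, 1319000, 1183000, 1252000 and 474800 normalised counts in testes 1 to 5. Testis 1 was the highest and testis 5 the lowest. As a share of library counts it took 9.80%, 7.16%, 10.04%, 11.7% and 6.01%, a 1.95-fold range where the normalised counts gave 4.91. Outside testis it was found at a trace, with 59.07 normalised counts in ovary 3, 18.97 in male hepatopancreas 2, 14.80 in ovary 1 and at most 3.85 in the 12 others. Its level in testis was 60200-fold that in ovary (95% counting interval 52200 to 69800, from 190 ovary counts) and 234000-fold that in male hepatopancreas (140000 to 429000, from 14 counts). Such intervals and the bounds below cover counting error only.

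The next by level per kilobase was transcript_HQ_Female_transcript23128/f2p0/609, of 609 bases, with a median of 77380 normalised counts per kilobase. It held 141500, 13950, 47120, 22730 and 176600 normalised counts in testes 1 to 5. Testes 5 and 1 were the high libraries and testes 2 and 4 the low ones, the opposite of the most abundant member with respect to testis 5. It had no count in any of the 15 libraries of the other groups, and was at least 331000-fold higher in testis than in ovary and at least 94900-fold higher than in male hepatopancreas (each against 3 counts over the group).

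The other 5 members over 10000 are named here after their values were seen. Transcript transcript_HQ_Female_transcript80/f16p0/4222, the longest member with 4231 bases, held 319700, 65780, 149400, 49500 and 98700 normalised counts in testes 1 to 5. Transcript transcript_LQ_Female_transcript6571/f2p0/1828 held 176900, 16380, 94430, 33690 and 89540 and had no count elsewhere. Both were highest in testis 1 and low in testes 2 and 4. Transcript transcript_HQ_Female_transcript8742/f20p0/1495 held 73260, 27110, 25150, 15380 and 56450, again highest in testis 1 and lowest in testis 4. Transcript transcript_HQ_Female_transcript11511/f7p0/1333 held 150900, 213000, 65500, 55800 and 48430, highest in testis 2 and lowest in testis 5. The last, transcript_HQ_Female_transcript23424/f6p0/623, is among the least variable members and is described with them below. All 7 of these ranked within the first 100 transcripts of the testis by level per kilobase, which no other member did.

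**Figure D2:**
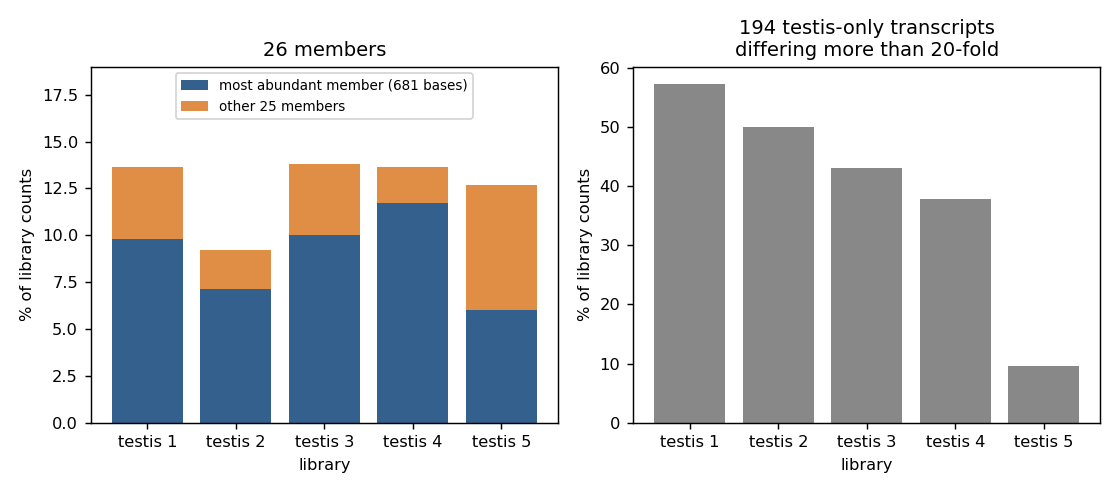
Share of library counts (%) in the 5 testis libraries, on the left for the most abundant member (lower bar section) and the other 25 members (upper section), on the right for the 194 testis-only transcripts that differed more than 20-fold, with its own axis. The members together took 9.24% to 13.8% in every testis, while the 194 took 37.7% to 57.3% in testes 1 to 4 and 9.64% in testis 5. Within the members' sum, testis 5 had the lowest share of the most abundant member (6.01%) and the highest of the other 25 (6.65%).

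The members were steady only by the limit of 20 that chose them. Their ratios between testes ran from 2.17 to 19.91, with a median of 8.67 and quartiles of 4.80 and 11.76. Of the 26, 8 had a ratio of at most 5 and 12 a ratio over 10. The 2438 transcripts with a median of at least 100 in all 4 groups had a median ratio between the same testes of 2.25 (quartiles 1.71 and 3.51), and 97.6% of them lay at or under 20. The 108 ovary-only transcripts chosen by the mirrored rule, of 115 without the limit, had a median ratio between ovaries of 2.51 (1.66 and 3.69). These ratios are of normalised counts, whose size factors level transcripts with counts in all 20 libraries. On library totals the members' median ratio was 4.95, and that of the other sets was not determined. By normalised counts the word steady describes the members poorly, and they are called here testis-only transcripts within 20-fold.

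**Figure D3:**
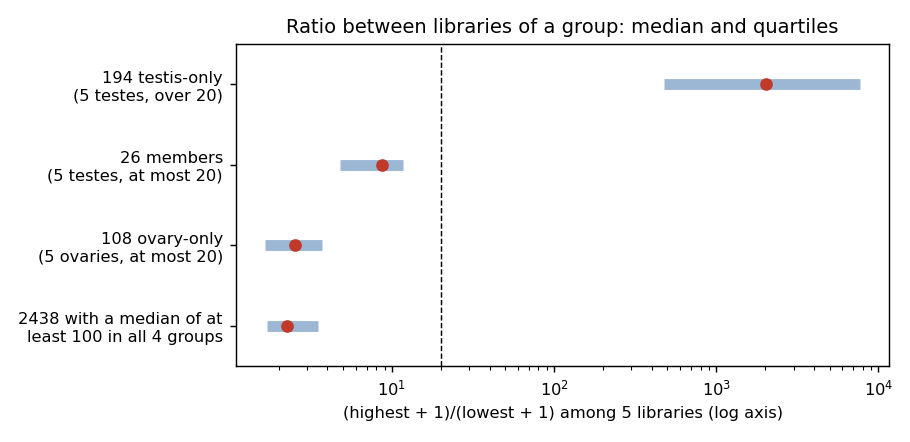
Ratio of (highest + 1) to (lowest + 1) normalised counts among the 5 libraries of a group (log axis) as median (point) and quartiles (bar) for 4 sets of transcripts, with the limit of 20 dashed. The members' median of 8.67 lies above those of the ovary-only set (2.51) and of the set found in all 4 groups (2.25), and below the 2023 of the other testis-only transcripts.

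The member of lowest ratio was transcript_HQ_Female_transcript304/f2p0/3624, with 613.7, 938.5, 700.9, 535.9 and 432.1 normalised counts in testes 1 to 5, a mean of 644.2 ± 192.0 (SD, n = 5). No testis lay far from the others. It was also one of the members found in most other libraries, with counts in 14 of 15 and up to 42.17 normalised counts in female hepatopancreas 4. Next was transcript_HQ_Female_transcript23424/f6p0/623, with 21920, 22310, 21750, 8574 and 12680 (17450 ± 6396). Testes 1 to 3 were nearly level and testes 4 and 5 lower, and its ratio was 2.60.

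The member of highest ratio was transcript_HQ_Female_transcript23213/f2p0/649, with 386.6, 235.2, 138.7, 137.3 and 18.47 normalised counts in testes 1 to 5. Testis 5 alone was far below the others, and over testes 1 to 4 the ratio was 2.80 instead of 19.91. Next was transcript_HQ_Female_transcript12060/f14p0/1370, with 5422, 362.4, 6885, 2009 and 1938. Here testis 2 was the low library, testis 5 lay beside testis 4, and the ratio of 18.95 stayed the same over testes 1 to 4. Members at the limit thus reached it through different libraries.

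The limit of 20 parted the 26 members from the 194 other testis-only transcripts mainly through testis 5. Over testes 1 to 4, the median ratio was 4.08 in the members (quartiles 2.65 and 7.99) and 4.61 in the others (2.93 and 7.22), and 162 of the 194 (83.5%) lay at or under 20. With testis 5 left out of the rule altogether, 194 of the 227 testis-only transcripts found from the other libraries became members, 24 of the 26 among them. Testis 5 was below the lowest of testes 1 to 4 for 172 of the 194 others, and 125 of these 194 had under 10 normalised counts there. Of the members, 11 lay below the range of testes 1 to 4 in testis 5, 10 within it and 5 above it. Of the 2438 transcripts found in all 4 groups, 933 lay below, 675 within and 830 above. The median of testis 5 over the median of testes 1 to 4 was 0.619 for the members, from 0.0988 to 6.71, and 0.000187 for the others. As shares of library counts, 9 members were below the range, 6 within and 11 above it. The background was 269 below, 562 within and 1607 above of the 2438 transcripts found in all 4 groups. On that scale the median was 1.36 for the members, against 1.78 for the 2438. What sets testis 5 apart was not tested.

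**Figure D4:**
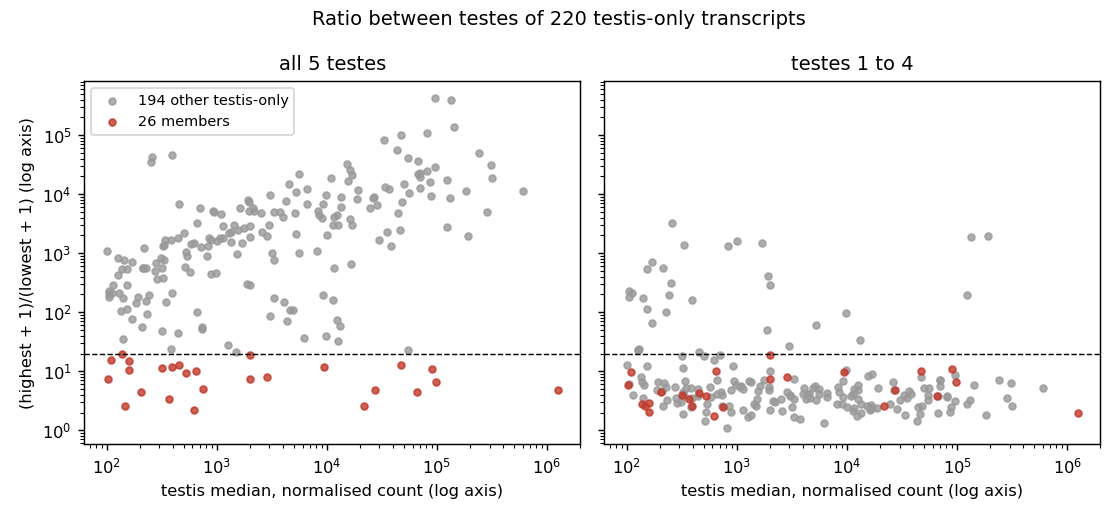
Ratio between testes (log axis) against testis median (normalised counts, log axis) for the 220 testis-only transcripts, with the 26 members in red and the limit of 20 dashed, over all 5 testes (left) and over testes 1 to 4 (right). With testis 5 in, the others spread up to 434000, while without it 162 of the 194 others lie at or under 20, as all 26 members do.

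The members did not share 1 profile across the testes. Grouped by the testis in which each was lowest, 11 were lowest in testis 5, 6 in testis 2, 6 in testis 4, 2 in testis 1 and 1 in testis 3. On size factors, the 11 of 26 (42.3%) lowest in testis 5 were near the background. Testis 5 was also the lowest testis for 38.3% of the 2438 transcripts found in all 4 groups. It was lowest for 42.7% of the 4209 with a testis median of at least 100, and for 88.7% of the 194 other testis-only transcripts. On library totals the share was not near: 9 of 26 members, against 269 of the 2438 and 870 of the 4209. Testis 4 was lowest for 23.1% of members on size factors, against 9.93% of the 2438 and 10.3% of the 4209. For testis 2 the shares were 23.1%, 21.0% and 19.1%. All 11 that were lowest in testis 5 were highest in testis 1 (6 members) or testis 2 (5). These 2 testes had the smallest size factors of the testes (0.621 and 0.833). How often they were highest over all transcripts was not determined, so this count is not read as a trait of the members. Of the 6 lowest in testis 2, 3 were highest in testis 5. The members highest in testis 5 numbered 5 of 26, where the background was 830 of the 2438 and 1287 of the 4209. The values of these 5 members there were up to 6.71 times the median of testes 1 to 4, in transcript_HQ_Female_transcript19444/f2p0/962 with 352.7, 36.0, 109.7, 62.41 and 577.5 normalised counts. The grouping depends in part on the scaling. With library totals in place of size factors, 21 of 26 kept their lowest testis and 15 of 26 their highest. On that scale 11 members were highest in testis 5, and 4 instead of 10 in testis 1. Testis 5 was then also the highest testis for 1607 of the 2438 and 2378 of the 4209. The 11 are therefore not read as a trait of the members.

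**Figure D5:**
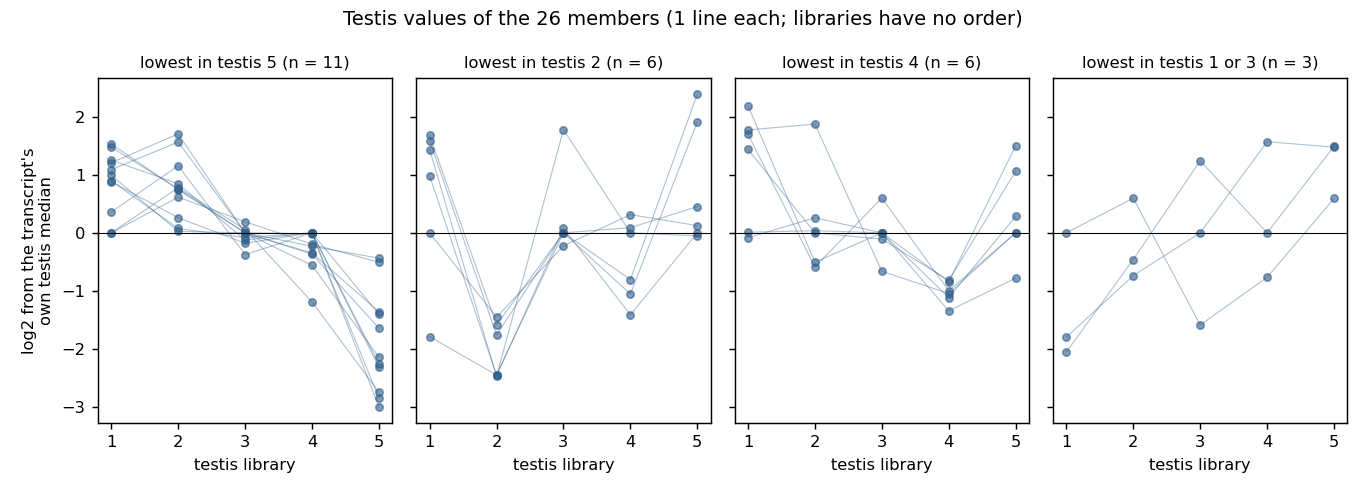
Normalised counts of the 26 members in the 5 testes, as log2(normalised count + 1) minus each transcript's own median over the testes, 1 line per transcript, in panels by the testis of lowest value. The panel of 11 members lowest in testis 5 falls from testes 1 and 2 to testis 5, while the other panels, of 6, 6 and 3 members, have their low points elsewhere.

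Outside testis, the members' counts were few and unevenly spread. All 26 together had 1441 counts in the 15 other libraries, against 9365472 in the 5 testes. No count was found for 11 members (42.3%), close to the 41.2% (80 of 194) of the other testis-only transcripts. These 11 ran from 109.7 to 89540 normalised counts in testis, and were at least 286-fold to 94900-fold higher there than in male hepatopancreas. Of the members lowest in testis 5, 2 of 11 had no count elsewhere, and of the rest 9 of 15, a difference that was not tested. Member counts summed to 297, 73, 261, 43 and 100 in ovaries 1 to 5, to 12, 3, 159, 363 and 5 in female hepatopancreas 1 to 5, and to 16, 27, 15, 20 and 47 in male hepatopancreas 1 to 5. Female hepatopancreas 3 and 4 thus held 36.2% of all member counts outside testis, and these are the libraries that correlated least with their group. Ovaries 1 and 3, with 297 and 261 counts, also held large parts. Their median correlations with their group were 0.933 and 0.909, where the ovaries ran from 0.909 to 0.939. Ovary 3 had 0.00205% of its counts in members, where the 194 other testis-only transcripts took 1.60%, against 0.00214% to 0.0376% in the other ovaries. The part of these libraries in the traces was not tested.

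The highest value outside testis belonged to transcript_HQ_Female_transcript19731/f2p0/941. It held 202.9, 307.2, 66.95, 119.0 and 306.1 normalised counts in testes 1 to 5 (200.4 ± 108.4, SD, n = 5) and 178.0 in female hepatopancreas 4, inside the range of the testes. The other female hepatopancreas libraries held at most 1.59, and male hepatopancreas at most 14.56, in male 1. Next was transcript_HQ_Female_transcript9269/f12p0/1564, with 136.9, 174.0, 145.2, 66.57 and 176.8 in testes 1 to 5 (139.9 ± 44.55) and 92.54 in female hepatopancreas 4, 28.46 in male hepatopancreas 4 and 27.73 in female hepatopancreas 3. Female hepatopancreas 4 was above testis 4 for this transcript. Testis levels were 4.94-fold (counting interval 4.18 to 5.88) and 4.71-fold (3.86 to 5.79) those of female hepatopancreas for these 2, in sums that rest mostly on library 4, so their values in testis and female hepatopancreas overlap through that library. Of the 26 members, 12 reached 10 normalised counts in at least 1 library outside testis and 1 reached 100.

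Transcripts near each limit had similar values on both sides. The lowest testis medians among members were 102.4, in transcript_HQ_Female_transcript5711/f2p0/1843, and 109.7, in transcript_HQ_Female_transcript19444/f2p0/962. Just outside were 98.19 and 90.34, in transcript_HQ_Female_transcript6136/f3p0/1817 and transcript_HQ_Female_transcript13328/f2p0/1340. The highest median in another group was 8.77 normalised counts for transcript_HQ_Female_transcript5711/f2p0/1843 and transcript_HQ_Female_transcript9269/f12p0/1564, against 11.14 in transcript_HQ_Female_transcript7335/f10p0/1700 and 11.32 in transcript_HQ_Female_transcript7394/f2p0/1717, which were left out. At the ratio limit, 19.91 and 18.95 were inside, and 21.41 in transcript_HQ_Female_transcript24379/f2p0/506 and 23.27 in transcript_HQ_Female_transcript23611/f10p0/593 were outside. The first of these, of 1843 bases, was at 28.99, 18, 102.4, 109.0 and 140.3 in testes 1 to 5 and at up to 18.12 in ovary 2, so its testis and ovary values overlap.

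Length and the parts of the ID were not used by the rule. The members' median length was 1394 bases (609 to 4231), against 1032 in the 194 other testis-only transcripts, 1256 in the ovary-only set and 1862 in those found in all 4 groups. Of the 26 IDs, 1 (3.85%) carried the quality class LQ, against 17 of 194 (8.76%) of the others and 3.53% of the 10464 transcripts with a count in any library. No member ID carried the word Male, although all members are testis transcripts. That word was in 2.06% of the other testis-only IDs and 24.1% of the ovary-only ones. In the whole table it was in 17520 of 30260 IDs (57.9%), but only 351 of these had a count in any library, 3.35% of the 10464 that did. The number after f in the ID was 2 for 14 members (53.8%), against 41.8% of the 194 others and 49.1% of the ovary-only set. It was 2 for 43.1% of all transcripts with counts and 48.9% of the whole table. None of these differences was tested, since transcripts are not replicates.

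By the contrasts the rule used, every member was called. Fitted across all transcripts with edgeR's quasi-likelihood test, 26 of 26 members were higher in testis than in ovary, where 29.9% of 7045 tested transcripts were called higher in testis, and 26 of 26 were higher in testis than in male hepatopancreas, where the share was 25.1% of 7094. These background shares depend on the scaling: on library totals they were 13.9% against ovary and 44.7% against male hepatopancreas. With weight gain as a covariate the share against ovary was 18.1%. The choice of members fixes these counts and nothing is read from them. The smallest fitted log2 difference of a member was 2.89 against ovary and 3.56 against male hepatopancreas, and the medians over all tested transcripts were 0.11 and 0.21.

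For weight gain, which the rule did not use, no member was called within testis. The testis samples carried weight gain labels of 2.05, 2.83, 2.61, 1.48 and 2.74, in units the labels do not give. In edgeR fits over the 5 testes, 0 of 26 members and 0% of 7073 transcripts were called, and 0 members and 66 transcripts (0.933%) had an unadjusted p under 0.05. DESeq2 called 28 of the 7073, with 0 members among them, and 1 of 26 members (3.85%) and 296 of the 7073 (4.18%) had an unadjusted p under 0.05, so the members' share was near that of all transcripts. The log2 slopes of the members per unit of weight gain ran from -0.70 to 1.08, with 14 above 0 and 12 below, and a median of 0.08, the same as over all tested transcripts. Their standard errors ran from 0.412 to 1.90. The lowest p among members belonged to transcript_HQ_Female_transcript9269/f12p0/1564, with a slope of 0.95 ± 0.44 (SE, unadjusted edgeR p 0.0788, adjusted 1.00), and then to transcript_HQ_Female_transcript19731/f2p0/941, with 0.75 ± 0.68 (p 0.32, adjusted 1.00). Slopes well above their errors can have been missed with 5 libraries, since even 0.95 ± 0.44 gave an unadjusted edgeR p of 0.0788. The limit of 20-fold also bounds how steep a member's slope can be.

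Female and male hepatopancreas could not be compared for the members in the main fit. No member reached 10 counts in 5 of the 10 libraries, so 0 of 26 were tested among 6582 transcripts, of which 289 (4.39%) were called. That background was unstable, and its smallest adjusted p was 0.036, near the limit of 0.05. It changed whenever 1 library was left out, with the filter then lowered to 4 libraries. The edgeR counts were 594 without female hepatopancreas 3, 733 without male hepatopancreas 5 and 2 without female hepatopancreas 1. They were 0 without any 1 of the other 7 (1363 to 1683 at an unadjusted p under 0.05). Without the filter, 12 members could be tested, and edgeR called none of them, as of all 9738 transcripts (0%). One of these 12 and 21.1% of the 9738 had an unadjusted p under 0.05.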

How the data were processed

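The deposited table gives, for 20 libraries, the authors' estimated counts per transcript, unnormalised, with a length in bases (deposited as another column). Of values above 0, 58.7% are whole (within 1e-06). Per the submitters' processing notes, DESeq 1.10.1 and Bowtie 0.12.2 were used, in roles not stated. How reads were counted, and on which reference, is not given in the sources used here. Estimated counts were rounded. Size factors and an alternative test came from DESeq2 1.42.0, the main tests from edgeR 4.0.16 (R 4.3.3): quasi-likelihood, TMM, at least 10 counts in 5 libraries (3 for weight gain in testis, 4 with a library left out of a group comparison, a choice made after seeing the data), Benjamini-Hochberg adjusted p under 0.05 over all tested transcripts. The fits were also run on simulated counts with 1 fixed spread and no library apart from its group. That run does not show how they behave with a library like testis 5. Members and sets were chosen with earlier results of these data known. Named transcripts are the 2 extremes of level per kilobase, ratio, value outside testis, weight gain p and each limit, plus 5 abundant ones.

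Same-numbered testis and male hepatopancreas libraries deviated together (correlation across 7094 transcripts 0.17 to 0.31, 5 of 5 pairs). The column names share a word and number, as in Male1_Hp and Male1_Tt, but no label states that 1 animal gave both. The weight gain labels of male hepatopancreas and testis differed within each number. They were 2.06 and 2.05, 3.69 and 2.83, 1.61 and 2.61, 2.83 and 1.48, and 2.77 and 2.74 for numbers 1 to 5. The main fit was therefore unpaired, and the replicate number entered as a block only in an alternative. Same-numbered libraries of testis and ovary (0 of 5 pairs over 0.1) and of the hepatopancreas groups (1 of 5) mostly did not deviate together. Alternatives were other scalings, filters, limits, DESeq2, all groups in 1 fit, the block, weight gain and leaving out libraries.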

Additional observations from a re-analysis of the deposited data

Results flagged for a closer look

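Each value here comes from measures that chose the transcripts, so the gaps describe the libraries and test nothing. The members' share of counts was lowest in testis 2, which lay far from the rest. It was 9.24% in testis 2 against 12.7% to 13.8% in the others, a gap of 0.756 of the whole range.

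In the 2 transcripts of highest value outside testis, a single hepatopancreas library lay far above the rest of its group. The rule keeps each group's median under 10 and these 2 were named for their highest value, so such a gap follows in large part from the choice. For transcript_HQ_Female_transcript19731/f2p0/941 the gap was 0.991 of the range in female hepatopancreas, where library 4 held 178.0 normalised counts, and 0.736 in male hepatopancreas, where library 1 held 14.56. For transcript_HQ_Female_transcript9269/f12p0/1564 it was 0.870 in male hepatopancreas, where library 4 held 28.46.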

How the results depend on the processing

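The number of members, 26, moved with the rule. It was 40 with separate size factors for gonads and hepatopancreas, 43 with a minimum testis median of 50, 47 with a maximum of 20 in the other groups, 14 with a maximum ratio of 10 and 220 with none. Leaving out 1 testis gave 29 to 194, the latter without testis 5. TMM scaling gave 28 (25 shared) and library totals 32 (18 shared), and leaving out female hepatopancreas 4 and male hepatopancreas 5 together, chosen after seeing the data, gave 30 with all 26 among them. The median ratio between testes of the 26 was 4.95 on library totals, and 4.05 to 8.70 with 1 testis left out.

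The replicate block left 26 of 26 members called against male hepatopancreas and against ovary. Leaving out any 1 library left 26 in both. Library totals, and weight gain as a covariate, each gave 25 against ovary, and a filter of 50 counts gave 22 of 22 tested in both. No alternative called a member for weight gain or between the hepatopancreas groups, and the latter holds no information where no member was tested. The share of all transcripts called moved more. On library totals 979 were higher and 3253 lower in testis than ovary, against 2105 and 1904, and 3169 were higher and 1088 lower than in male hepatopancreas, against 1782 and 1629. Between the hepatopancreas groups edgeR called 289, but 0 on library totals, with the replicate block or with weight gain as a covariate (1841, 1361 and 631 at an unadjusted p under 0.05), 456 with a filter of 50 counts, 0 to 733 with 1 library left out, and DESeq2 called 1221. On library totals the median log2 difference of all transcripts was -1.17 for testis minus ovary and 1.1 for testis minus male hepatopancreas. The slope of transcript_HQ_Female_transcript9269/f12p0/1564 had an unadjusted p of 0.00504 with all 10 gonad libraries (adjusted 1.00) and 0.00388 in DESeq2 (adjusted 0.387). The fit to all 10 gonad libraries gives testis and ovary 1 shared slope. Ovary labels ran from 2.14 to 7.52, and testis labels from 1.48 to 2.83. In ovaries 1 to 5 this member held only 0, 10.43, 0.386, 8.77 and 12.18 normalised counts, and these traces enter that slope. With all 10 gonad libraries, 3 of 26 members (11.5%) and 173 of 7073 transcripts (2.45%) had an unadjusted edgeR p under 0.05. The slope fitted to all 10 gonad libraries is not a slope within testis, since testis and ovary share it. Outside testis the members together had 3 to 363 counts in a library, so ratios there rest on few counts.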
